A study of Mus musculus with 3 samples.

Results

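The laminin chain genes were described in the NIH3T3 line, which is derived from mouse embryo fibroblasts. Members were the rows of the deposited table whose gene name was Lama1, Lama2, Lama3, Lama4, Lama5, Lamb1, Lamb2, Lamb3 or Lamc1, and all 9 names were found once among the 55573 genes of the table. Lamc3, a gamma chain gene that is no member, was described beside them, since a trimer cannot be listed without its gamma chain. UMI-RNAseq counts RNA molecules after PCR copies have been removed by a random tag on each molecule. It was run on 3 libraries of NIH3T3 cells, grown in DMEM with serum and antibiotics and given no treatment, so the study has 1 group and no comparison between conditions. Nothing in the sources says that each library is a culture of its own, so the spread between them may be technical only. Values are FPKM, the fragments of a gene scaled to a length of a kilobase and to 1000000 fragments per library, and the libraries held 13959723 to 14423209 counted fragments.

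Laminins are cross-shaped proteins of basement membranes, each built from an alpha, a beta and a gamma chain that are wound together in a long coiled coil. The globular end of the alpha chain binds integrins and dystroglycan on the cell surface, whereas the short arms link laminins into a sheet, and the gamma 1 short arm binds nidogen. A trimer is named after its chains, so laminin-411 holds alpha 4, beta 1 and gamma 1. A beta and a gamma chain can dimerize inside the cell, and an alpha chain is needed for secretion. Alpha 4, alpha 5, beta 1, beta 2 and gamma 1 are common in mesenchyme and vessels, alpha 2 in muscle and peripheral nerve, and alpha 3 and beta 3 in epithelia.

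The transcripts split into a group that was clearly present and a group near 0. Lamb1, Lamc1, Lamb2, Lama4 and Lama5, which are 5 of the 9 members, had an FPKM of at least 1 in every library, and the other 4, Lama1, Lama2, Lama3 and Lamb3, were below 1 in every library. Of all genes in the table, 22.2% had an FPKM of at least 1 in every library, and of those annotated as protein coding, as the members are, 48.6% did. The lowest value of the higher group was 10.4 FPKM and the highest value of the lower group was 0.226 FPKM, so no library held a member in between. Counted from the top of the 12905 genes whose mean reached 1 FPKM, Lamb1 ranked 151, Lamc1 215, Lamb2 808, Lama4 3246 and Lama5 7960. These ranks depend on the gene lengths behind the deposited FPKM, which are described below, and none was computed with the longest isoforms. The same split can be read from the plot of FPKM by library.

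**Figure D1:**
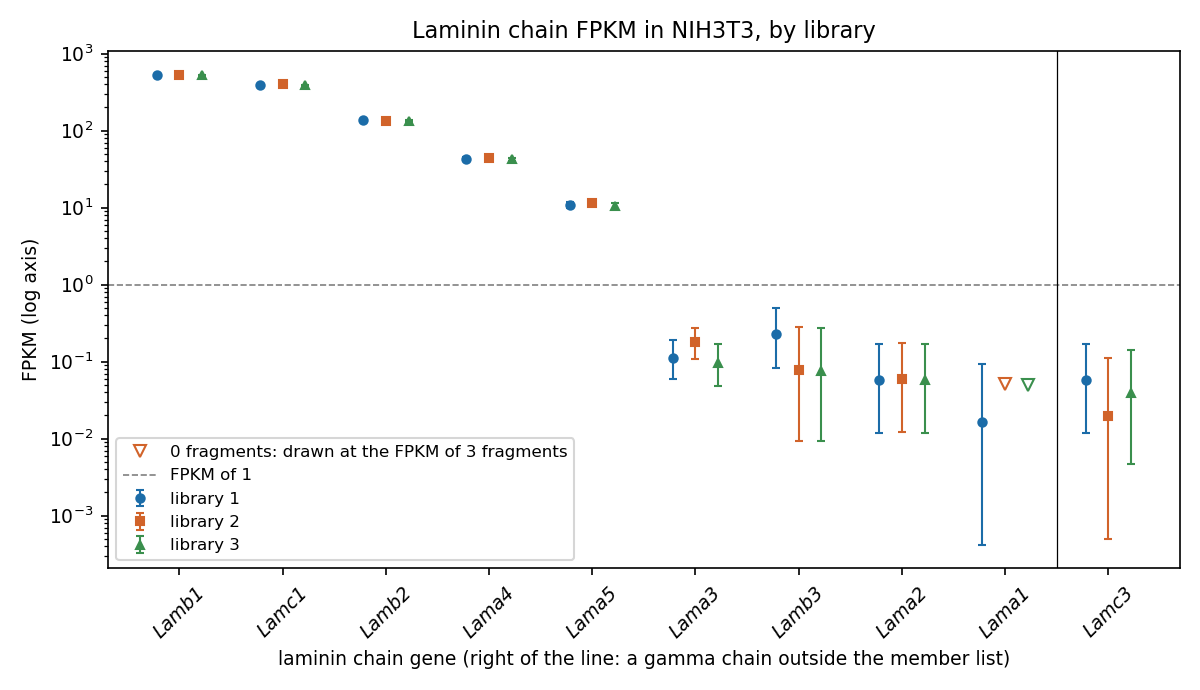
FPKM of each laminin chain gene (log axis) in libraries 1, 2 and 3 of NIH3T3, with exact Poisson 95% intervals of the fragments as bars, and with open triangles at the FPKM of 3 fragments where no fragment was counted. Lamb1 to Lama5 sit between 10.4 and 532 FPKM, and the other chains sit at or below 0.226 FPKM.

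The cells carried the transcripts of fibroblasts. All 10 fibroblast markers of the list, which were Col1a1, Col1a2, Col3a1, Fn1, Vim, Pdgfra, Pdgfrb, Thy1, S100a4 and Ddr2, had an FPKM of at least 1 in every library. At a limit of 10 FPKM 9 of them remained, and the share of all genes at that limit was not computed. S100a4 was the lowest, at 2.97 ± 0.208 FPKM (SD, n = 3), below the epithelium marker Krt14 at 8.39. The labels of the samples mention retina in their extraction text. Of 10 retina markers, 0 had an FPKM of at least 1 in every library, with a summed level of 0.867 to 1.40 FPKM. This limit of 1 FPKM was reached by 1 of 10 epithelium markers, 2 of 8 endothelium markers (Cdh5 and Vwf), 1 of 6 Schwann cell markers (Mbp) and 0 of 6 skeletal muscle markers. Over the whole table it was reached by 22.2% of genes, and by 48.6% of those annotated as protein coding.

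Lamb1 encodes beta 1, a beta chain of several widespread laminins. The gene (ENSMUSG00000002900) lies on chromosome 12 of GRCm38 from 31265234 to 31329644, on the plus strand, and had 529.8, 532 and 526 FPKM in libraries 1, 2 and 3. The mean was 529 ± 3.02 FPKM (SD, n = 3), the highest of the members in each library. Lamb2 encodes beta 2, known from the neuromuscular synapse and the kidney filter, and the gene (ENSMUSG00000052911) lies on the plus strand of chromosome 9 from 108479736 to 108490530. Its values were 137, 135 and 134 FPKM, with a mean of 135.2 ± 1.67 (SD, n = 3). Lamb1 lay above Lamb2 by a factor of 3.92 ± 0.0472 (SD, n = 3), or 8.30 when the length of the longest isoform was used. Lamb3 encodes beta 3, an epithelial partner of alpha 3, and the gene (ENSMUSG00000026639) lies on the plus strand of chromosome 1 from 193207699 to 193343878. It rested on 6, 2 and 2 fragments, which gave 0.226, 0.0779 and 0.0761 FPKM. The exact Poisson 95% intervals of these values, which cover counting error only, were 0.0831 to 0.493 for library 1, 0.00944 to 0.282 for library 2 and 0.00921 to 0.275 for library 3, so a difference in Lamb3 between the libraries was not detectable at this depth. Per deposited length, Lamb2 lay above Lamb3 by a factor of 1061 over the summed fragments, with an exact Clopper-Pearson 95% interval from 577 to 2214. This interval does not cover the choice of length. With the longest isoforms the gap was smaller, with means of 28.3 FPKM for Lamb2 and 0.0479 FPKM for Lamb3.

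The promoters of the beta chain genes are shown because this class runs from the highest member to a chain near 0 and the promoter table holds all of it. The sequences are the 250 bases before the start site in RefSeq (build GRCm38.p6), read 5′ to 3′ on the strand of the gene, with each CG dinucleotide in capitals. CG reads the same on both strands and did not overlap another motif, since no other was searched.

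Lamb1, chr12:31265043-31265292, plus strand: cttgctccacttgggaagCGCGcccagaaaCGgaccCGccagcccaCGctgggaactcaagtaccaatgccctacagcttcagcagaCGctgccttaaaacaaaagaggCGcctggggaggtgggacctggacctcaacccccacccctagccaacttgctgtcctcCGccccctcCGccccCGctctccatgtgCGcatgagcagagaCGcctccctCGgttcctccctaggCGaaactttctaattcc

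Lamb2, chr9:108479612-108479861, plus strand: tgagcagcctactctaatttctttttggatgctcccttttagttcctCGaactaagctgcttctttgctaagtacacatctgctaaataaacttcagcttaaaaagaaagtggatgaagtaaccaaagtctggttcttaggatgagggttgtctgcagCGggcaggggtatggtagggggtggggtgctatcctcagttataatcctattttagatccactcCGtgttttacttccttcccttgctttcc

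Lamb3, chr1:193301744-193301993, plus strand: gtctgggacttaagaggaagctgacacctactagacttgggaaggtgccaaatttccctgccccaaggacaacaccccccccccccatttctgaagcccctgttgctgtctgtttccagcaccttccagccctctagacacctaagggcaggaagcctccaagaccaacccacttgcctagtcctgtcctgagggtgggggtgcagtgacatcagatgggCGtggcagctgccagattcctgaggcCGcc

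The Lamb1 window held 14 CG dinucleotides, and 29.4% of the 32851 RefSeq promoter windows of this length held as many or more. The Lamb2 window held 3, which 71.0% of windows reached, and the Lamb3 window held 2, which 81.2% reached. The median over all windows was 6. No relation between this number and the FPKM was tested. RefSeq lists a further start for Lamb3, whose window held 3. Both Lamb3 windows lie inside the span that GENCODE M21 gives the gene, which begins upstream of the RefSeq starts. The Lamb1 and Lamb2 windows lie partly inside the spans of their genes, which begin at 31265234 and 108479736. Of the other members, the promoter table holds Lama5, with 19 CG dinucleotides, and Lama2, with 0. Lama1, Lama3, Lama4 and Lamc1 did not match.

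Lamc1 encodes gamma 1, the gamma chain that most laminins share. The gene (ENSMUSG00000026478) spans 153218922 to 153332786 on chromosome 1, minus strand, and had 388, 400.2 and 389 FPKM, with a mean of 393 ± 6.66 (SD, n = 3). Library 2 was the highest. The Poisson intervals were 382 to 395 FPKM for library 1 and 393 to 407 for library 2. They overlapped, which is no test of a difference, and none was run between libraries. The coefficient of variation of Lamc1 was 1.90 times that from counting alone. Lamc3 encodes gamma 3, lies on chromosome 2 from 31887291 to 31946539, and rested on 3, 1 and 2 fragments, or 0.0576, 0.0198 and 0.0387 FPKM. Its exons overlap the antisense gene Gm13441 over 382 bases.

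Among the alpha chains, Lama4 was the highest. It encodes alpha 4, a chain of mesenchymal and endothelial laminins whose short arm is truncated, and the gene (ENSMUSG00000019846) lies on the plus strand of chromosome 10 from 38965515 to 39110188. Lama4 had 43.0, 44.5 and 42.3 FPKM, with a mean of 43.3 ± 1.13 (SD, n = 3). Lama5 encodes alpha 5, a full-length chain of many epithelial and vascular basement membranes, and the gene (ENSMUSG00000015647) spans 180176373 to 180225859 on chromosome 2, minus strand. Its values were 10.7, 11.5 and 10.4 FPKM, with a mean of 10.9 ± 0.544 (SD, n = 3). Lama4 exceeded Lama5 in each library, by a factor of 4.01, 3.88 and 4.06. The coding sequence measures 5448 nt in Lama4 and 11154 nt in Lama5, whereas the FPKM of these genes was computed with 2635 and 3263 nt, so this difference in length was divided out only in part. With the longest isoforms, the ratio of Lama4 to Lama5 was 6.06 ± 0.143 (SD, n = 3). Of the summed alpha chain FPKM, Lama4 made up 79.6% ± 0.432 (SD, n = 3), and nearly all of the rest was Lama5.

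The other alpha chains were near 0. Lama3 (ENSMUSG00000024421) encodes alpha 3 of epithelia, lies on the plus strand of chromosome 18 from 12333819 to 12583013, and had 13, 20 and 11 fragments, or 0.112, 0.178 and 0.0955 FPKM. The Poisson intervals of Lama3 overlapped between libraries, with 0.0596 to 0.191 FPKM for library 1, 0.109 to 0.275 for library 2 and 0.0477 to 0.171 for library 3. Over the summed fragments, Lama5 lay above Lama3 by a factor of 84.9, with an exact Clopper-Pearson 95% interval from 62.9 to 117 for counting error. Taken within each library, this ratio was 89.8 ± 22.9 (SD, n = 3), and with the longest isoforms it was 33.7. Lama2 (ENSMUSG00000019899) encodes alpha 2 of muscle and nerve, spans 26980036 to 27619758 on chromosome 10, minus strand, and had 3 fragments in each library, or 0.0577, 0.0596 and 0.0582 FPKM. Lama1 (ENSMUSG00000032796) encodes alpha 1 of early embryonic basement membranes and lies on the plus strand of chromosome 17 from 67697259 to 67822647. It had 1 fragment in library 1, or 0.0165 FPKM, and 0 fragments in libraries 2 and 3, where the exact Poisson 95% intervals reached 0.0630 and 0.0614 FPKM. Exons of Lama2 overlap the antisense gene Gm48084 over 631 bases, and those of Lama3 overlap the antisense gene Gm29200 over 197 bases. The sources do not state whether strand was used in counting, so reads of these pairs cannot be told apart there. Exons of the other members overlap no other annotated gene, and 0% of their distinct 75-nt words occur in a transcript of another gene.

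The order of the members by mean FPKM was Lamb1, Lamc1, Lamb2, Lama4, Lama5, Lama3, Lamb3, Lama2 and Lama1. The ratio of neighbours in this order, taken within each library, was 1.35 ± 0.0174 for Lamb1 to Lamc1, 2.90 ± 0.0709 for Lamc1 to Lamb2, 3.13 ± 0.0903 for Lamb2 to Lama4 and 3.98 ± 0.0939 for Lama4 to Lama5 (SD, n = 3 each). Each of these steps was larger than the spread between libraries and was seen in 3 of 3 libraries. The step from Lama5 to Lama3 also exceeded the spread. Lama3 to Lamb3 was 0.495, 2.28 and 1.26 in the respective libraries, and the Poisson intervals of the pair overlapped in all of them. Lamb3 lay above Lama2 by a factor of 2.18 over the summed fragments, with an exact Clopper-Pearson 95% interval from 0.796 to 6.06, and the Poisson intervals of this pair overlapped in all libraries too. Lama2 and Lama1 were both at or under a floor of 3 fragments per library, so no ratio is given. Flipping the signs of the log2 ratios in an exact permutation test, two-sided, gave p = 0.75 for Lama3 to Lamb3 and p = 0.25 for the other neighbours with a ratio. With 3 libraries 0.25 is the smallest p this test can give, so it could not pass 0.05.

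The spread of the higher members over libraries was close to or below counting error, except for Lamc1. The coefficient of variation was 0.571% for Lamb1 against 0.719% from counting alone, 1.24% against 2.10% for Lamb2, 2.60% against 2.48% for Lama4 and 5.00% against 4.45% for Lama5. Lamc1 stood at 1.70% against 0.893%, a factor of 1.90. Among the 6717 genes with a mean of 400 to 25000 fragments, this factor had a median of 0.943, with quartiles of 0.590 and 1.35.

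The gene length behind each FPKM bears on comparisons between chains. The deposited values equal whole fragments divided by the mean length of all annotated isoforms of a gene in GENCODE M21, short ones included. Lamb2 has 7 annotated isoforms of up to 5629 nt, and its FPKM was computed with 1180 nt. Lamc1 has 5 isoforms of 466 to 7622 nt and a mean of 2244 nt, and Lama5 has 4 isoforms of 451 to 11388 nt and a mean of 3263 nt. The longest isoform exceeds the mean by a factor of 4.77 in Lamb2, 3.49 in Lama5, 3.40 in Lamc1, 2.29 in Lama4 and 2.25 in Lamb1, against a median of 1.73 over the 12892 genes compared. When lengths were taken from the longest isoform, the levels became 235 ± 1.34 FPKM for Lamb1, 116 ± 1.96 for Lamc1, 28.3 ± 0.351 for Lamb2, 18.9 ± 0.491 for Lama4 and 3.12 ± 0.156 for Lama5 (SD, n = 3 each). Their order stayed the same, but Lamb1 to Lamc1 widened to 2.04, and the step from Lamb2 to Lama4 narrowed. Which isoforms the cells used was not measured.

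**Figure D2:**
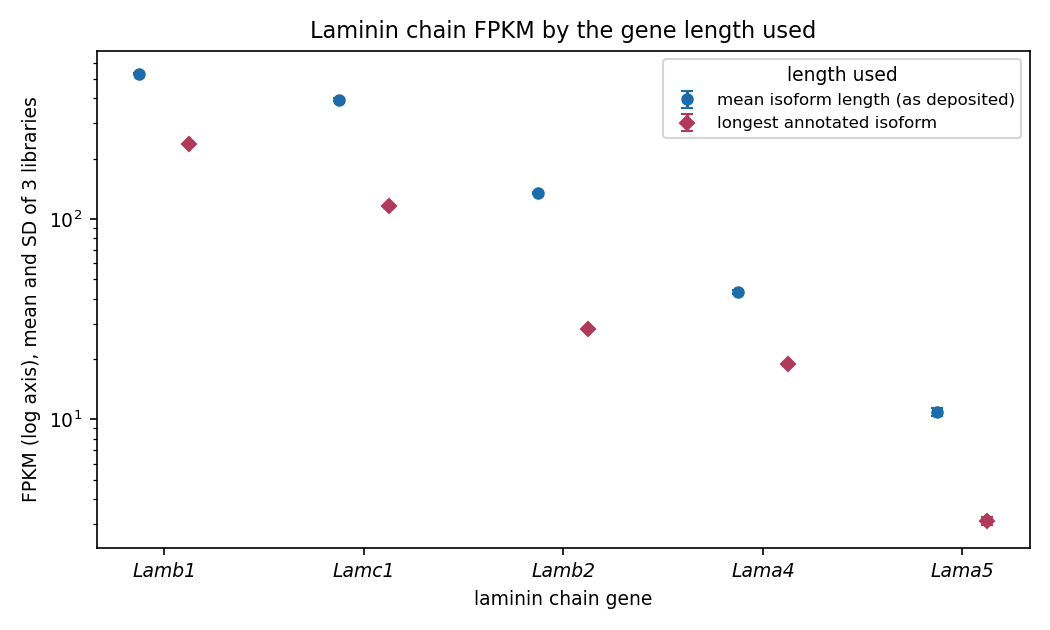
FPKM (log axis, mean and SD of 3 libraries) of the 5 members with an FPKM of at least 1 in every library, computed with the mean isoform length as deposited (circles) and with the longest annotated isoform (diamonds). Each gene falls, Lamb2 by the largest factor, from 135.2 to 28.3 FPKM, and the order of the genes stays the same.

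The chains of a laminin are present in equal numbers, whereas the transcripts of the chain classes were not. The alpha chains summed to 53.9, 56.2 and 52.9 FPKM, the beta chains to 667, 667 and 660.3 FPKM, and gamma 1 stood at 388, 400.2 and 389 FPKM in libraries 1, 2 and 3. Gamma 1 thus exceeded the alpha sum by a factor of 7.22 ± 0.119 (SD, n = 3), and the beta sum exceeded gamma 1 by a factor of 1.69 ± 0.0259 (SD, n = 3). With the longest isoforms these factors were 5.23 ± 0.0826 and 2.28 ± 0.0324. Alpha chain transcripts were therefore the least abundant class in every library under both lengths. Of the beta sum, Lamb1 made up 79.6% ± 0.206 (SD, n = 3) as deposited and 89.2% with the longest isoforms. A transcript level is not a protein level, and no laminin protein was measured here.

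The members give 15 combinations of an alpha, a beta and the gamma 1 chain, counted whether or not such a trimer is known. Of these, 10 are in the list of trimers used below, which holds none with beta 3. A combination was called allowed when each of its chain genes had an FPKM of at least 1 in every library, and 4 of the 15 were. These were laminin-411, laminin-421, laminin-511 and laminin-521. In laminin-411 and laminin-421 the lowest chain was Lama4 in each library, at 43.3 ± 1.13 FPKM (SD, n = 3), and in laminin-511 and laminin-521 it was Lama5, at 10.9 ± 0.544 FPKM (SD, n = 3). Every other combination held an alpha 1, alpha 2, alpha 3 or beta 3 chain, and its lowest chain stayed at or below 0.226 FPKM. The count of 4 was the same with limits of 0.1, 0.5, 5 and 10 FPKM, but fell to 2 when a limit of 10 FPKM was combined with the longest isoforms, where Lama5 was below it.

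Against a list of 13 trimers taken from general knowledge of the family, of which 10 are made of members, the same 4 were allowed. Laminin-111 and laminin-121 lacked Lama1, laminin-211 and laminin-221 lacked Lama2, and laminin-311 and laminin-321 lacked Lama3, while their beta and gamma chains were at 134 FPKM or above. Laminin-213, laminin-423 and laminin-523 lacked Lamc3, which stayed at or below 0.0576 FPKM, and laminin-213 lacked Lama2 as well. The plot of the lowest chain of each trimer shows the gap between these sets.

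**Figure D3:**
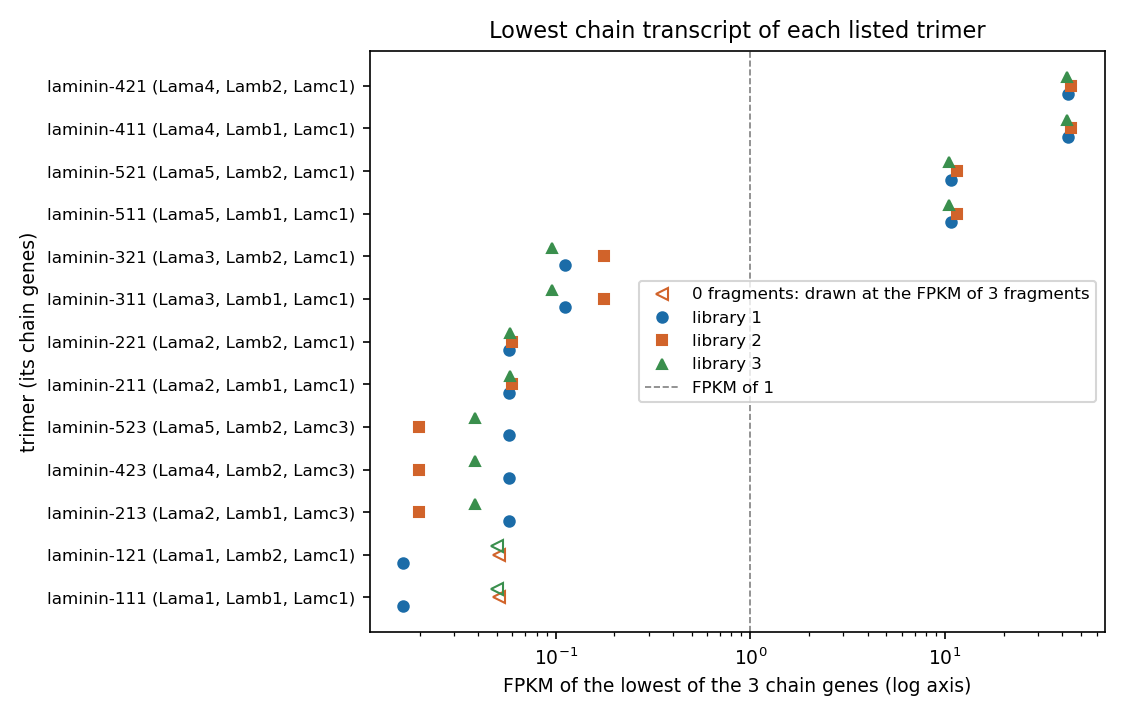
FPKM (log axis) of the lowest of the 3 chain genes of each of 13 listed trimers, in libraries 1, 2 and 3, with open triangles at the FPKM of 3 fragments where the lowest chain had no fragment. Laminin-411, laminin-421, laminin-511 and laminin-521 sit between 10.4 and 44.5 FPKM, and the others sit at or below 0.178 FPKM.

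The chains known from epithelia, alpha 3 and beta 3, were set beside markers of that tissue. Lama3 was at 0.128 ± 0.0436 and Lamb3 at 0.127 ± 0.0862 FPKM (SD, n = 3 each), from 44 and 10 fragments over the libraries. Per deposited length the summed fragments of Lama3 and Lamb3 were in a ratio of 1.00, with an exact Clopper-Pearson 95% interval from 0.498 to 2.24. With those lengths an order between them was not detectable at this depth. With the longest isoforms Lama3 had 0.0981 ± 0.0333 and Lamb3 0.0479 ± 0.0326 FPKM (SD, n = 3 each). In library 1 these values were 0.0854 and 0.0855, and no interval was computed for this ratio. Of the epithelium markers, Krt14, a keratin of basal epithelial cells, had 8.39 ± 0.291 FPKM (SD, n = 3), and the other 9 were below 1 in every library, with Epcam, Krt5, Krt18, Esrp1 and Cldn3 at 0. The epithelium markers summed to 9.07 to 9.68 FPKM, and their part in the levels of Lama3 and Lamb3 was not tested. In bulk libraries fewer cells of a type and less RNA per cell cannot be told apart.

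The other genes of the basement membrane were described with lists of partners and receptors. Of 14 partners, 10 had an FPKM of at least 1 in every library, against 22.2% of all genes and 48.6% of those annotated as protein coding. Col4a1 and Col4a2, which encode the chains of the common collagen IV network, had 402 ± 4.22 and 325 ± 5.03 FPKM (SD, n = 3 each). Nid1, which encodes nidogen 1, the link between gamma 1 and collagen IV, had 293 ± 5.74 FPKM (SD, n = 3). Hspg2, which encodes perlecan, had 193 ± 3.91, and Agrn, which encodes the laminin-binding proteoglycan agrin, had 24.4 ± 0.714 FPKM (SD, n = 3 each). The 4 partners below 1 in every library were Nid2, Col15a1, Col4a3 and Col4a4. Lamc1 stood at 0.977 ± 0.00630 (SD, n = 3) times Col4a1 and at 1.34 ± 0.0214 (SD, n = 3) times Nid1 as deposited. With the longest isoforms these values were 0.889 and 0.685, so the order of Lamc1 and Nid1 depends on the length used. Lama4, the highest alpha chain, lay 9.28-fold ± 0.155 (SD, n = 3) below Col4a1, and 6.90-fold below it with the longest isoforms.

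Of 9 laminin receptor genes, 6 had an FPKM of at least 1 in every library, against the same 48.6% of protein coding genes. At a limit of 10 FPKM 3 remained, and the share of all genes at that limit was not computed. Itgb1, which encodes the beta 1 subunit shared by most laminin-binding integrins, had 463 ± 4.96 FPKM (SD, n = 3). Of the alpha subunits that pair with it, Itga6 had 122 ± 2.36, Itga3 had 8.27 ± 0.322, Itga1 had 3.87 ± 0.210 and Itga7 had 1.86 ± 0.251 FPKM (SD, n = 3 each). Itga6 lay above Itga3 by a factor of 14.8 ± 0.384 (SD, n = 3). Itgb4, which encodes the partner of alpha 6 in hemidesmosomes of epithelia, stayed at 0.581 ± 0.0437 FPKM (SD, n = 3), and Itga2 and Bcam, an alpha 5 laminin receptor, were also below 1 in every library. Dag1, which encodes dystroglycan, had 79.2 ± 1.23 FPKM (SD, n = 3).

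Dystroglycan binds laminin through a sugar chain that a series of enzymes builds. Of 8 genes of this series, 7 had an FPKM of at least 1 in every library, again against 48.6% of protein coding genes. At a limit of 10 FPKM 4 remained, again without a share of all genes to set beside them. The highest were Rxylt1, Pomgnt1 and B3galnt2, at 38.5 ± 0.789, 31.3 ± 1.02 and 31.2 ± 0.260 FPKM (SD, n = 3 each). Pomt1 and Pomt2, which together add its first mannose, had 10.9 ± 0.771 and 6.57 ± 0.331 FPKM (SD, n = 3 each). Pomgnt2, which adds the next sugar, had 10.2 ± 0.544 FPKM, and Pomk, a kinase that phosphorylates the mannose, had 3.64 ± 0.0824 FPKM (SD, n = 3 each). B4gat1 had 0, 0 and 1 fragments. Of 6 netrins, relatives of laminin that share its amino-terminal domain, 0 reached an FPKM of 1 in every library, and the highest was Ntn3, at 0.959, 1.21 and 1.14 FPKM.

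**Figure D4:**
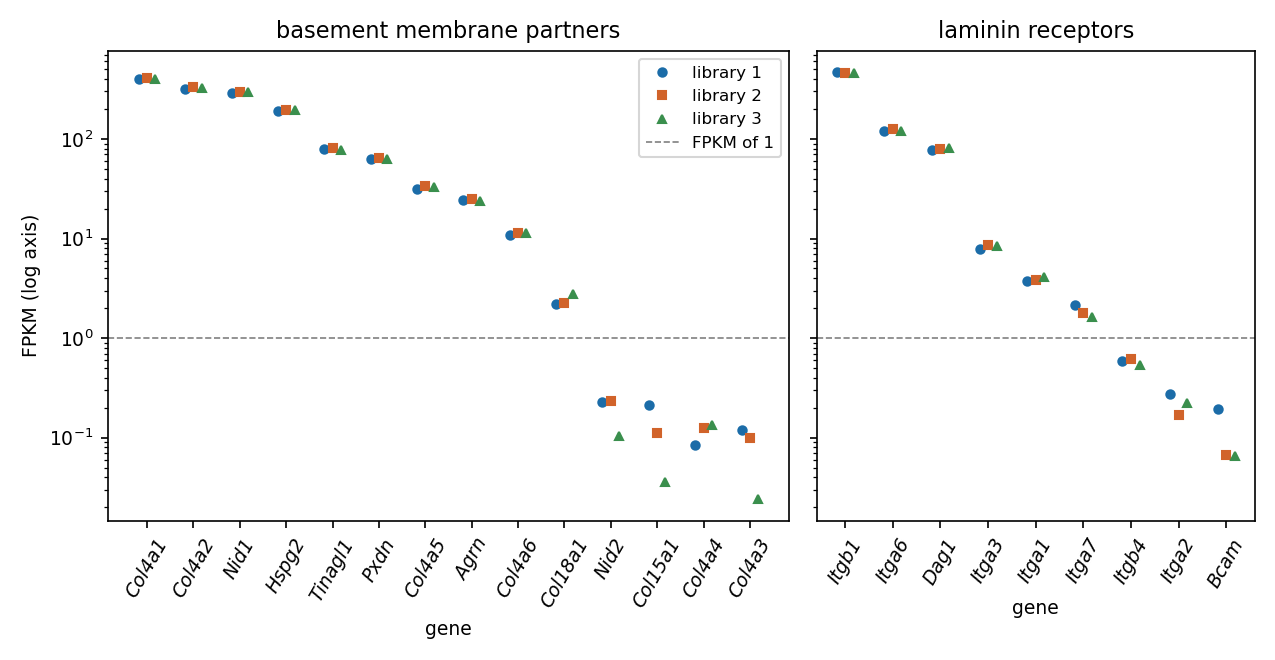
FPKM (log axis) of 14 basement membrane partners (left) and 9 laminin receptor genes (right) in libraries 1, 2 and 3. Col4a1, Col4a2 and Nid1 lead the partners and Itgb1 and Itga6 lead the receptors, while 4 partners and 3 receptors lie below an FPKM of 1.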

How the data were processed

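UMI-RNAseq was run on 3 libraries of NIH3T3 cells. The authors identified UMIs with UMI-tools, mapped reads that carry a UMI with HISAT2, dropped copies and counted reads per gene with HTSeq. The submitters' processing notes name UMI-tools 1.0.0, HISAT2 2.0.4, HTSeq 0.6.1 and DESeq 1.10.1. The build and annotation of the counting are not given in the sources used here. The authors deposited FPKM values, 1 column per library, in 2 tables with identical values.

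No count model was fitted, since FPKM are not counts. Fragments were computed as FPKM times the rounded mean isoform length (GENCODE M21, GRCm38, which holds 55394 of 55573 gene IDs) and the library total, read from 1-fragment genes with 1 isoform. All laminin chains gave whole numbers within 1.09e-11. The step was also run on data simulated with the same lengths and formula, which checks the code but not the choice of lengths. Intervals (exact Poisson or Clopper-Pearson, 95%, scipy 1.17.1) and floors of 3 fragments cover counting error only. Means and SDs are over libraries, and p-values come from exact sign-flip permutation tests. CG dinucleotides were counted in RefSeq promoters. Python 3.11.15, numpy 2.4.6, pandas 2.3.3 and matplotlib 3.10.9 were used, and 0 columns of values were left unused.

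The members and lists were chosen with earlier results of these data known. The text names all members, Lamc3, genes past the limit in lists of at most 10 genes and the 3 highest of longer lists. Hspg2, Agrn, Ntn3 and the genes named as below the limit were chosen after their values were seen. Alternatives were each replicate left out, TPM, median-of-ratios scaling, the longest isoform, the median, pseudocounts of 0.1 and 1, and other limits. Some genes and sequences are not reported here. No groups were compared.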

Additional observations from a re-analysis of the deposited data

How the results depend on the processing

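Across 248 recomputed values, 206 stayed within the spread of the libraries (for a count, within 1.5 times, and for a ratio of neighbouring chains, on the same side of 0), 41 moved further and 1 reversed. Part of the 206 was fixed in advance. With 3 libraries, leaving 1 out or taking the median moves a mean level or share by less than 1 SD whatever the values. TPM and median-of-ratios scaling cancel in ratios and shares within a library, except where a pseudocount was added. The ratio of Lama3 to Lamb3, 0.17 on the log2 scale, ranged from -0.34 to 0.76 when each replicate was left out in turn. The negative value came without replicate 2. With the longest isoform the ratio was 1.18, so the order of these chains was not resolved. The 4 allowed trimers became 2 with the longest isoform and a limit of 10 FPKM, where Lama5 drops out. The other 12 alternatives left the count at 4, among them Lamc3 as a further gamma chain, and the last setting and that with a limit of 10 FPKM on the longest isoform were chosen after seeing the data. With the longest isoform, the ratio of gamma 1 to the alpha sum moved from 7.22 to 5.23, that of the beta sum to gamma 1 from 1.69 to 2.28, the share of Lama4 among alpha chains from 79.6% to 85.4% and that of Lamb1 among beta chains from 79.6% to 89.2%. Levels moved with TPM, by 1 factor per library, and with the longest isoform. With 3 libraries and few fragments in Lama1, Lama2, Lama3 and Lamb3, differences between neighbours in their order could not be resolved. No paired analysis was possible because a single condition was measured.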
